A study of Macaca mulatta with 8 samples.

Results

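The 36 genes described here encode the signalling machinery of the T cell receptor: the CD3 chains, the co-receptor CD4, co-stimulatory receptors, the first kinases, the phosphatases and adaptors around them, and the messengers that carry the signal on. They were chosen by gene symbol from textbook knowledge of the pathway, with earlier results of these data already known. All 36 were found, once each, among the 16429 genes of the table. The series profiled single CD4 T cells of rhesus macaques after adoptive transfer of regulatory T cells (Tregs), CD4 cells that restrain immune responses, on day 3 and day 20. Blood mononuclear cells (PBMC) had been cryopreserved, thawed on 1 day, enriched for CD4 with a magnetic kit and sorted into 4 populations. These were cells positive for the dye CFSE, which the series title lets one read as the transferred Tregs, and 3 sorts of CD3+CD4+ cells that were CD25hiCD127lo (the surface phenotype of endogenous Tregs), CD25posCD127pos and CD25negCD127pos (the conventional phenotype). The labels name neither the animal nor a treatment for any library, and whether the libraries of a day came from the same animal is not stated. There were 8 libraries, 1 for each population and day, so no group was replicated and no test was run. All intervals below are 95% intervals and cover counting error alone.

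A T cell receptor has no enzyme of its own. When it binds its ligand, the kinase LCK, held near the receptor by CD4, phosphorylates the CD3 chains, ZAP70 docks there and phosphorylates the scaffold LAT, and enzymes gathered on LAT release the messengers that activate NFAT, NF-kappa B and RAS. In Tregs the same cascade is needed to maintain and switch on suppressive function, and several inhibitors (CSK, PTPN22, PTPN6, CBLB, SIT1) hold it back. Levels are given in CPM, the UMIs (counted RNA molecules) of a gene per 1000000 UMIs of the library. They count transcript ends and are compared across libraries, never between genes.

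The 8 libraries held 25397 cells and 67627231 UMIs, with 1149 to 4751 cells, 2992787 to 12149559 UMIs and a median of 2131 to 3095 UMIs per cell in each. The CFSE+ libraries were 98.5% (day 3) and 92.6% (day 20) cells of the class that the authors named transTreg, whereas the CD25hiCD127lo libraries were a mixture, with 38.9% and 40% endoTreg cells and 60.9% and 57.9% Tconv cells. Ribosomal protein genes took 29.4% of the UMIs in the CFSE+ library of day 3 and 36.1 to 39.5% in the other 7. In that library the B cell marker CD79A was at 55.4 CPM, against 12.4 to 20.4 CPM in the others, and the 5 B cell markers summed to 106 CPM against 17.5 to 60.6 CPM. The red cell gene HBB was at 147 to 1385 CPM on day 3 and at most 0.668 CPM on day 20. HBA2, another red cell gene, did not fall in that way, at 150 to 228 CPM on day 3 and 126 to 147 CPM on day 20. What these differences contribute to the values below was not tested. Markers of NK cells, CD8 T cells, monocytes, platelets and dendritic cells summed to at most 21.4 CPM a list. Of 25012 cell barcodes, 382 occurred in more than 1 library.

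Of the 36 genes, 22 reached 20 CPM in at least 1 library and 17 reached it in all 8. The other 14 stayed under 20 CPM throughout: CD247, CD4, CD5, CD6, CD28, PAG1, SLA, LCP2, SH2D1A, THEMIS, PLCG1, BCL10, NFATC1 and NFATC2. Over all 8 libraries they had from 36 UMIs (NFATC1) to 1009 UMIs (PLCG1), and no ratio of theirs is read below. Whether the annotation used covers the transcript ends of these genes could not be checked, so a low count is not read as absence of RNA. Among the 22, the highest level of 12 (54.5%) was in a CFSE+ library, 10 of them (45.5%) on day 3, against 70.6% and 62.6% of the 4418 genes that reached 20 CPM anywhere. The lowest level of 7 (31.8%) was in a CFSE+ library, against 21.4% of all genes. A range of at least 2-fold over the 8 libraries was spanned by 7 of the 22 (31.8%), against 35.3% of all genes.

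The CD3 chains CD3D, CD3E and CD3G form the signalling arms of the receptor complex. CD3D (ENSMMUG00000048164) stood at 2273, 1522, 1174.5 and 1188 CPM on day 3 in CFSE+, CD25hiCD127lo, CD25posCD127pos and CD25negCD127pos cells, an order kept in all sentences that follow. On day 20 it stood at 1498, 1236, 1224 and 1230.2 CPM. CD3D was thus highest in CFSE+ cells on both days, by 1.49-fold (1.46 to 1.52) and 1.21-fold (1.17 to 1.26) over CD25hiCD127lo cells, while the 3 other sorts of day 20 lay close together. CD3E was at 47.8, 41.4, 41.1 and 53.6 CPM on day 3 and 60.1, 59.3, 30.4 and 49.2 CPM on day 20, with no sort highest on both days. CD3G was at 218, 176, 147 and 178 CPM on day 3 and 233, 161, 157 and 176 CPM on day 20. CD3G was highest in CFSE+ cells on both days, but its day 3 log2 ratio to CD25hiCD127lo cells went from 0.29 to -0.02 with TMM factors, and that of CD3E from 0.17 to -0.10, so no direction is given for the CD3 chains as a group on day 3. CD247, the zeta chain that recruits ZAP70, was at 1.73, 1.11, 0.671 and 0.398 CPM on day 3 and 2.0, 1.52, 0.858 and 0.860 CPM on day 20. Those levels rest on 74 UMIs over all 8 libraries, with 3 UMIs in the lowest, and no fold is read from them.

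Few CD4 UMIs were counted in cells sorted for the CD4 protein, at 3.95, 4.08, 3.47 and 7.29 CPM on day 3 and 7.02, 3.80, 4.96 and 4.05 CPM on day 20 (309 UMIs in all). The sort label therefore rests on the protein and could not be checked through the CD4 gene. CD2, an adhesion and co-stimulatory receptor, ranged from 234 CPM (CD25negCD127pos, day 3) to 372 CPM (CFSE+, day 3). Other surface receptors of the list were at low levels: CD5 reached at most 2.67 CPM, CD6 at most 4.24 CPM and CD28 at most 2.52 CPM.

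**Figure D1:**
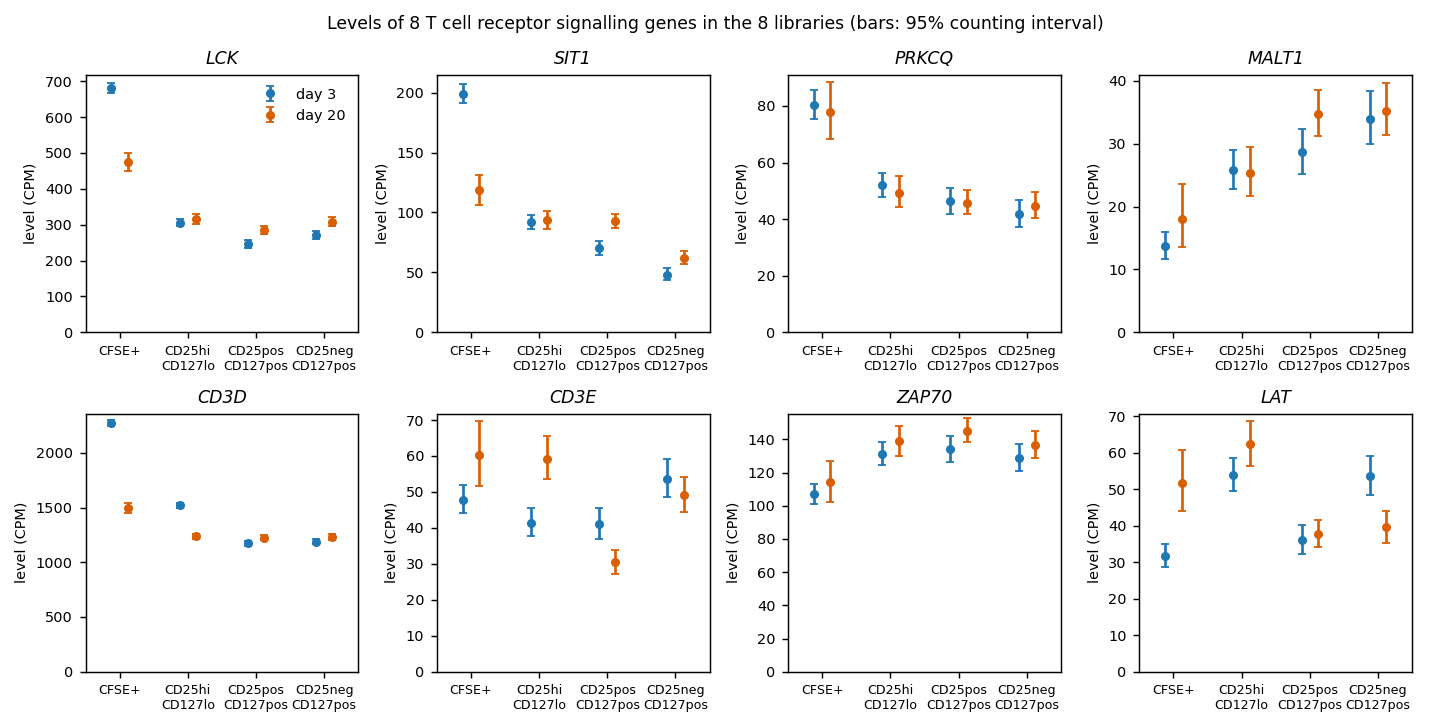
Levels in CPM (vertical axes, from 0) of 8 signalling genes in the 4 sorts on day 3 (blue) and day 20 (orange), 1 library per point, with 95% Poisson intervals. LCK, SIT1 and PRKCQ were highest and MALT1 lowest in CFSE+ cells on both days, whereas ZAP70 stayed between 107 and 145 CPM in all 8 libraries.

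LCK (ENSMMUG00000040694), the kinase that starts the cascade, was highest in the transferred cells on both days. It stood at 681, 306, 246 and 272 CPM on day 3 and at 474, 316, 285 and 308 CPM on day 20. Both CFSE+ libraries lay above all 6 other libraries, which ranged from 246 to 316 CPM. Against CD25negCD127pos cells LCK was 2.51-fold higher (2.39 to 2.63) on day 3 and 1.54-fold higher (1.44 to 1.64) on day 20. Against CD25hiCD127lo cells it was 2.23-fold higher (2.14 to 2.32) on day 3 and 1.5-fold higher (1.40 to 1.61) on day 20.

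The other proximal kinases did not share that pattern. ZAP70, which LCK activates, was at 107, 131, 134 and 129 CPM on day 3 and 114, 139, 145 and 137 CPM on day 20. FYN, a kinase closely related to LCK, was at 72.7, 113, 112 and 102 CPM on day 3 and 89.2, 125, 130 and 94.6 CPM on day 20. Both genes were lowest in CFSE+ cells on each day, FYN by 1.55-fold (1.42 to 1.69) and 1.40-fold (1.22 to 1.61) against CD25hiCD127lo cells. On day 20 the FYN intervals of CFSE+ (78.8 to 100.6 CPM) and CD25negCD127pos cells (88.0 to 101.5 CPM) overlapped. Neither gene reached 1.5-fold on both days once 10 CPM was added to each level. FYN and, below, PTPN22, CSK, RASGRP1, TRAT1 and GRAP2 fall outside the rule for named genes and were chosen after their values were seen.

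The inhibitors of the cascade differed among themselves. SIT1 (ENSMMUG00000047202), a membrane adaptor that recruits phosphatases and dampens the signal, stood at 199, 91.7, 70.3 and 48.1 CPM on day 3 and at 119, 93.5, 93.0 and 62.2 CPM on day 20. SIT1 was highest in CFSE+ and lowest in CD25negCD127pos cells on both days, 4.13-fold apart (3.70 to 4.62) on day 3 and 1.91-fold apart (1.66 to 2.19) on day 20. PTPN22, a phosphatase that switches off LCK and ZAP70, was at 47.1, 18.3, 15.8 and 22.0 CPM on day 3 and 27.4, 22.9, 19.4 and 21.3 CPM on day 20. Its 2.58-fold excess (2.19 to 3.05) over CD25hiCD127lo cells on day 3 was 1.19-fold on day 20, with an interval (0.901 to 1.57) that includes equality. CSK, the kinase that puts LCK in its closed state, was at 213, 139, 121 and 106 CPM on day 3 and 152, 147, 130.1 and 120.4 CPM on day 20. On day 3 CSK was 1.53-fold higher (1.44 to 1.63) in CFSE+ than in CD25hiCD127lo cells, and on day 20 its log2 ratio was 0.04, or -0.03 with TMM factors. The phosphatases PTPRC (CD45, 245 to 287 CPM) and PTPN6 (75.8 to 112 CPM) varied little. UBASH3A, a suppressor of receptor signalling, ranged from 46.5 to 71.9 CPM and the ubiquitin ligase CBLB from 30.1 to 57.3 CPM, both highest in the CFSE+ library of day 3, and PAG1 and SLA stayed at or under 7.60 CPM.

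Among the adaptors, LAT, the scaffold that ZAP70 phosphorylates, stood at 31.7, 53.8, 36.1 and 53.6 CPM on day 3 and at 51.8, 62.3, 37.7 and 39.6 CPM on day 20. LAT was lowest in CFSE+ cells on day 3 and second to CD25hiCD127lo cells on day 20, so its log2 ratio to CD25negCD127pos cells was -0.61 on day 3 and 0.32 on day 20. GRAP2, which links LAT to its partner LCP2, ranged from 16.6 to 30.6 CPM, and GRB2, the adaptor towards RAS, from 71.5 to 111 CPM. The exchange factor VAV1 ranged only from 19.6 to 24.9 CPM. TRAT1, a membrane adaptor of the receptor complex, was lowest at 12.2 CPM in the CFSE+ library of day 3 and lay between 18.3 and 25.9 CPM in the other 7. LCP2 reached at most 10.9 CPM, SH2D1A 8.11 CPM and THEMIS 3.44 CPM.

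Downstream, 2 genes that act side by side on the way to NF-kappa B stood at opposite ends in the transferred cells. PRKCQ (ENSMMUG00000020776), protein kinase C theta, was at 80.3, 51.9, 46.3 and 41.8 CPM on day 3 and 77.9, 49.4, 45.9 and 44.7 CPM on day 20. MALT1 (ENSMMUG00000014235), the protease of the complex that this kinase triggers, was at 13.7, 25.8, 28.6 and 33.9 CPM on day 3 and 18, 25.4, 34.7 and 35.3 CPM on day 20. For both genes the CFSE+ libraries lay outside the range of the 6 other libraries on each day, above it for PRKCQ and below it for MALT1, although the MALT1 intervals of CFSE+ (13.6 to 23.5 CPM) and CD25hiCD127lo cells (21.7 to 29.5 CPM) overlapped on day 20. Against CD25negCD127pos cells PRKCQ was 1.92-fold (1.69 to 2.19) and 1.74-fold (1.47 to 2.06) higher, and MALT1 was 2.47-fold (2.02 to 3.02) and 1.95-fold (1.46 to 2.66) lower, on day 3 and day 20. RASGRP1, which activates RAS, was at 64.1, 55.1, 67.0 and 69.7 CPM on day 3 and 40.8, 55.5, 77.8 and 87.4 CPM on day 20, so that CFSE+ cells were lowest on day 20 and not on day 3. PLCG1 ranged from 12.8 to 18.4 CPM and BCL10 from 9.09 to 14.7 CPM. NFATC1 and NFATC2 stayed at or under 1.23 CPM.

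Comparisons between sorts were summarised with log2 ratios of CPM after adding 10 CPM to each level, and a gene was called where both days gave a ratio of 2-fold or more in 1 direction. Genes that reached 20 CPM in neither library of a day were left out as not measured. The first comparison asks how far the transferred cells differ from cells with the phenotype of endogenous Tregs. Between CFSE+ and CD25hiCD127lo cells 0 of 21 measured signalling genes were called higher and 0 lower, against 0.506% and 1.09% of all 3756 genes measured. At a 1.5-fold line the counts were again 0 and 0, against 2.72% and 2.40% of all genes. LCK (log2 ratios 1.13 and 0.57) and PRKCQ (0.55 and 0.56) came nearest to that line. On day 3 alone 3 of 21 genes were at least 2-fold higher in CFSE+ cells (LCK, PTPN22 and SIT1), beside 4.61% of the genes measured that day. On the lower side there were 0, beside 2.36%. With TMM factors LCK, PTPN22 and SIT1 all came under 2-fold on that day. The median log2 ratio of the measured signalling genes was 0.29 on day 3, below the 0.36 of all genes, and -0.01 on day 20 against 0.04. With TMM factors the all-gene median of day 3 shifted by -0.27, and that of the signalling genes became -0.02.

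Against the conventional CD25negCD127pos cells, 0 of 22 measured genes were called higher and 0 lower at 2-fold (all genes 1.59% and 1.20%). At 1.5-fold on both days 3 were higher, LCK, SIT1 and PRKCQ, and 1 was lower, MALT1, beside 5.11% and 2.32% of all 3836 genes. The 3 of 22 is a larger share than the background, but with TMM or median-of-ratios factors SIT1 was the 1 of these 3 still past the line. MALT1 stayed past it on the lower side with both sets of factors. Both comparisons share the CFSE+ libraries and their results are not independent. The median log2 ratios were 0.24 on day 3 and 0.12 on day 20, against 0.43 and 0.10 for all genes.

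**Figure D2:**
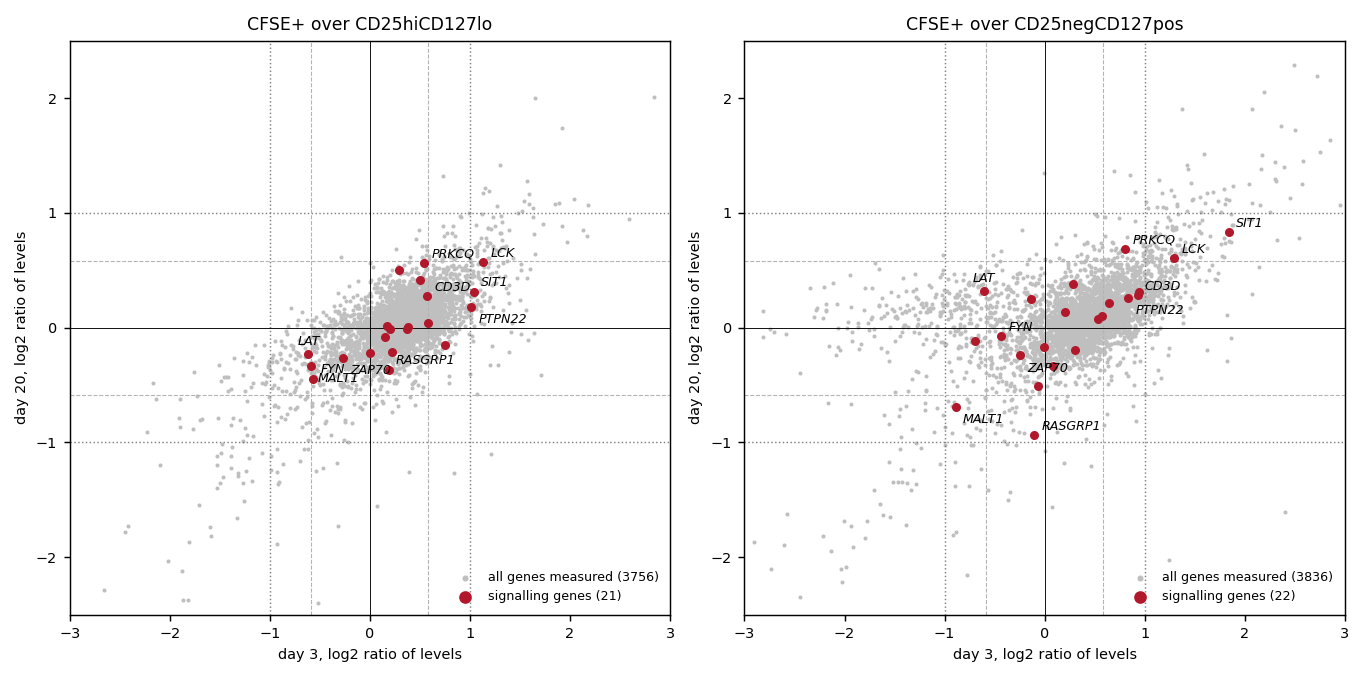
Log2 ratios of levels with 10 CPM added, day 3 (horizontal) against day 20 (vertical), for all measured genes (grey) and the signalling genes (red), in CFSE+ over CD25hiCD127lo cells (left) and over CD25negCD127pos cells (right); dashed lines mark 1.5-fold and dotted lines 2-fold, and grey points beyond the axes are not drawn. The red points lie within the grey cloud, and in the right panel LCK, SIT1 and PRKCQ lie past 1.5-fold on both days above and MALT1 below.

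CD25hiCD127lo cells, which are the endogenous counterpart of that comparison, were set against CD25negCD127pos cells next. Here 0 of 21 were called higher and 0 lower (all genes 0.645% and 0.449%), and the counts at 1.5-fold were also 0 and 0 (1.71% and 0.757%), with median log2 ratios of 0.01 and 0.07 against 0.07 and 0.04 for all genes. Between CD25posCD127pos and CD25negCD127pos cells 0 of 22 were called in either direction (all genes 0.0579% higher and 0.492% lower), also at 1.5-fold (0.665% and 0.868%), with medians of -0.05 and -0.01.

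Day and library cannot be told apart, since each sort gave 1 library on each day. In CFSE+ cells 0 of 21 measured genes differed at least 2-fold between day 3 and day 20 (all genes 4.68% either way). At 1.5-fold 3 of 21 differed (all genes 20.1% either way), each of them lower on day 20 (all genes 13.5%). These were SIT1 (199 to 119 CPM, log2 ratio -0.70), PTPN22 (47.1 to 27.4 CPM, -0.61) and CD3D (2273 to 1498 CPM, -0.60). LCK (-0.51) and RASGRP1 (-0.55) came next, and LAT went the other way, from 31.7 to 51.8 CPM (0.57). With TMM factors, or when ribosomal protein genes were left out of the scaling, only LAT was past 1.5-fold, on the higher side. The median of the signalling genes was -0.24 against -0.26 for all genes, so their typical difference was close to that of the library as a whole. In CD25hiCD127lo, CD25posCD127pos and CD25negCD127pos cells 0 genes were past 2-fold (all genes 1.72%, 0.137% and 0.110%) and 0 past 1.5-fold (7.30%, 3.58% and 0.663%).

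The CD25hiCD127lo sort mixed 2 classes, so the authors' matching classes were compared next. The authors' classes come from the same expression data, and these values are descriptions. LCK was at 683 CPM in transTreg cells of the CFSE+ sort and 370 CPM in endoTreg cells of the CD25hiCD127lo sort on day 3, a 1.85-fold difference (1.75 to 1.95). On day 20 the classes stood at 478 and 401 CPM, 1.19-fold apart (1.10 to 1.29). SIT1 was at 199 against 119 CPM on day 3, and on day 20 at 120.1 against 117 CPM, where the interval of the fold (0.877 to 1.2) includes equality. The day 20 differences in LCK and SIT1 between whole sorts were thus smaller between Treg classes. Those of CD3D, CD3E, CSK and MALT1 changed sign, each with a value near 0 on at least 1 side. The day 20 log2 ratio went from 0.27 between whole sorts to -0.01 between matching classes for CD3D. For CD3E it went from 0.02 to -0.12, for CSK from 0.04 to -0.23 and for MALT1 from -0.34 to 0.04. LAT and GRAP2 showed the reverse: LAT was at 31.6 against 67.7 CPM and 53.1 against 85.9 CPM, and GRAP2 at 27.7 against 15 CPM and 26.5 against 13.1 CPM, so that both were past 1.5-fold on each day in matching classes and not in whole sorts. These were 1 of 20 measured genes in each direction, beside 2.28% of all genes higher and 2.60% lower. Within the CD25hiCD127lo sort, endoTreg cells had more LCK than Tconv cells (370 against 259 CPM and 401 against 254 CPM), more SIT1 (119 against 72.9 CPM and 117 against 76.6 CPM) and more LAT (67.7 against 44.1 CPM and 85.9 against 45.7 CPM).

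The authors' finer names divide Tregs into effector, naive and, for transferred cells, in-transition groups. Contrasts of these names were added after the data were seen. In the CD25hiCD127lo sort, endo_Effector_Tregs (461 cells on day 3, 444 on day 20) were set against endo_Naive_Tregs (798 and 412 cells). On day 3 LCK was at 542 against 260.3 CPM, and on day 20 at 515 against 269 CPM. SIT1 was at 199 against 68.2 CPM and 164 against 61.2 CPM. LAT was at 108 against 42.8 CPM and 126 against 46.3 CPM. All 3 genes were higher in the effector group on both days, without overlap of their intervals, and so was CSK at 239 against 115 CPM and 237 against 119 CPM. Markers of other cells also differed: the 5 B cell markers summed to 113 against 76.5 CPM and 89.9 against 47.2 CPM, and the 5 monocyte markers to 12 against 2.65 CPM and 16.5 against 3.5 CPM. Their part in these values was not tested. TRAT1 was lower in the effector group, at 8.42 against 22.4 CPM and 12 against 26.2 CPM.

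At 2-fold on both days, 2 of 20 measured genes were higher in the effector group (SIT1 and LAT) beside 7.16% of all genes, and 0 were lower beside 0.447%. At 1.5-fold 5 were higher (CD2, LCK, CSK, SIT1 and LAT) beside 25.5%, and 1 was lower (TRAT1) beside 2.42%. Since the names were given from the same cells and genes, nothing is read from these shares. Ribosomal protein genes took 27.4% and 29.1% of UMIs in the effector group against 40.6% and 39.9% in the naive group, and the median log2 ratio of all genes was 0.43 and 0.37. With ribosomal protein genes left out of the scaling those medians were 0.18 and 0.17, SIT1 alone was past 2-fold, and LCK, CSK, SIT1 and LAT were past 1.5-fold.

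**Figure D3:**
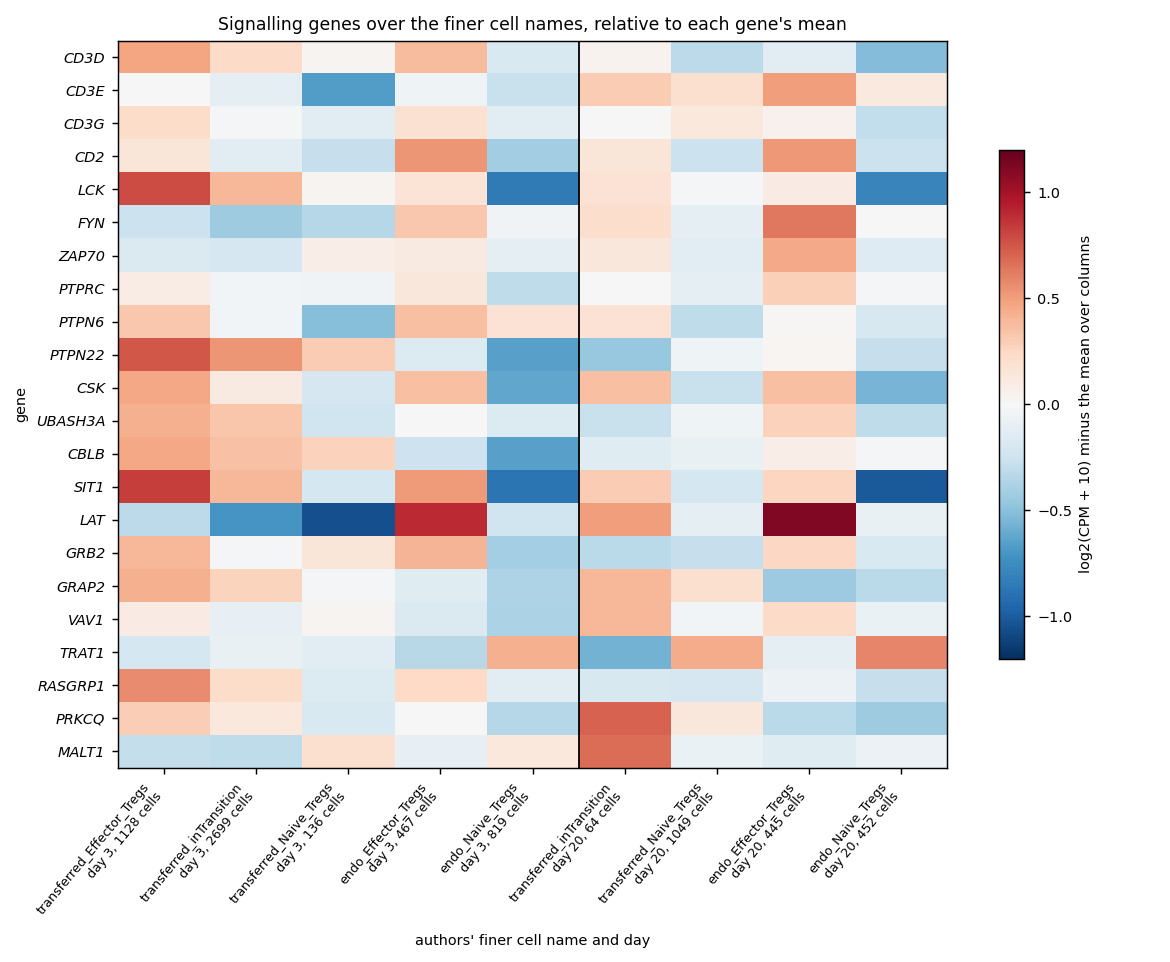
Levels of the 22 genes that reached 20 CPM, as log2(CPM + 10) minus each gene's mean over the columns (colour), in the authors' finer cell names on day 3 (left of the line) and day 20 (right), with cell numbers. SIT1 and LCK are red in transferred_Effector_Tregs and blue in endo_Naive_Tregs. LAT has its strongest red in endo_Effector_Tregs of both days, and the in-transition column of day 20 rests on 64 cells.

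The transferred cells of day 3 held 3 such groups. Between transferred_Effector_Tregs (1124 cells) and transferred_inTransition cells (2687 cells) of the CFSE+ library, LCK was at 835 against 634 CPM, SIT1 at 250.1 against 182 CPM and CSK at 254 against 198 CPM. Of 20 measured genes 0 were past 1.5-fold, beside 2.61% of all genes higher and 0.140% lower. The median log2 ratio of the 20 was 0.23, next to 0.22 for all genes. Ribosomal protein genes took 24.8% of UMIs in the effector group and 31.0% in the in-transition group, and their part in these values was not tested. Transferred_Naive_Tregs made up most of the CFSE+ library of day 20 (985 cells) and numbered 123 on day 3, with 310648 UMIs. Against these 123 cells the transferred effector group had 2.1-fold more SIT1 (1.51 to 3.0), 1.65-fold more LCK (1.41 to 1.95) and 1.61-fold more CSK (1.21 to 2.2), and 1.80-fold more LAT with an interval (0.850 to 4.56) that includes equality. At 1.5-fold 8 of 20 were higher beside 33.1% of all genes and 0 lower beside 4.30%. B cell markers summed to 126 CPM in the effector group and 77.3 CPM in the naive group, and ribosomal protein genes took 24.8% and 36% of UMIs.

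Effector groups of both origins could be set side by side on day 3. LCK was at 835 CPM in transferred and 542 CPM in endogenous effector cells, PTPN22 at 54.5 against 24.7 CPM and CBLB at 61.2 against 33.1 CPM, and these 3 of 20 were past 1.5-fold, beside 14.7% of all genes. LAT was at 40.6 against 108 CPM, a log2 ratio of -1.22, and FYN at 80.2 against 126 CPM, the 2 genes past 1.5-fold on the lower side (all genes 7.82%). Naive groups could be compared on both days. On day 3, where the transferred group rests on 123 cells, LCK was at 505 against 260.3 CPM, SIT1 at 119 against 68.2 CPM and FYN at 54.7 against 94.0 CPM. LAT was at 22.5 against 42.8 CPM there, on 7 UMIs in the transferred group and with a fold of 0.526 whose interval (0.207 to 1.12) includes equality. On day 20 LCK was at 480.1 against 269 CPM and SIT1 at 116 against 61.2 CPM, with log2 ratios of 0.81 and 0.82. LAT was then at 48.4 against 46.3 CPM, ZAP70 at 112 against 107 CPM and MALT1 at 17.4 against 16.6 CPM. LCK was thus higher in the transferred group in all 3 of these comparisons, and the log2 ratios of LAT were -1.22 (effector, day 3), -0.70 (naive, day 3) and 0.05 (naive, day 20). The differences between these ratios were not tested.

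Among conventional cells, clusters 5 and 6 of the authors were set side by side, a pair chosen after the levels of these genes in the clusters were seen. In the CD25negCD127pos sort cluster 5 held 549 cells on day 3 and 612 on day 20, and cluster 6 held 1168 and 1289. On day 3 CD2 was at 466 against 143 CPM, and on day 20 at 506 against 161 CPM. LCK was at 536 against 188 CPM and 574 against 239 CPM. ZAP70 was at 225 against 95.1 CPM and 229 against 109 CPM. These 3 genes, PTPN22 (50.8 against 17.2 CPM and 56.9 against 14.5 CPM) and SIT1 (77.3 against 22.7 CPM and 92.5 against 34.5 CPM) were at least 2-fold higher in cluster 5 on both days, 5 of 21 beside 14.2% of all genes. At 1.5-fold 15 of 21 were higher beside 34.1%, and 0 were lower beside 5.82%. MALT1, at 15.2 against 26.0 CPM and 14.2 against 30.6 CPM, pointed the other way and passed 1.5-fold on day 20.

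The clusters were made from the same genes, and nothing is read from these shares. Several other measures moved with them. The 5 NK markers summed to 97.6 CPM in cluster 5 and 1.62 CPM in cluster 6 on day 3 (92.5 and 0.967 CPM on day 20), with 1 of the 5 at 0 in cluster 5, while the 2 CD8 markers summed to at most 4.07 CPM. Cluster 5 had a median of 1618 and 1522 UMIs per cell against 2574 and 2372 in cluster 6. Ribosomal protein genes took 29.1% and 28.4% of its UMIs against 43.6% and 43.4%. Their part in the result was not tested, apart from the scaling without ribosomal protein genes, in which 6 of the 15 genes stayed past 1.5-fold (CD2, LCK, ZAP70, PTPN22, UBASH3A and SIT1) and MALT1 became lower on both days. The medians under that scaling were 0.50 and 0.44, against 0.22 and 0.21 for all genes.

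**Figure D4:**
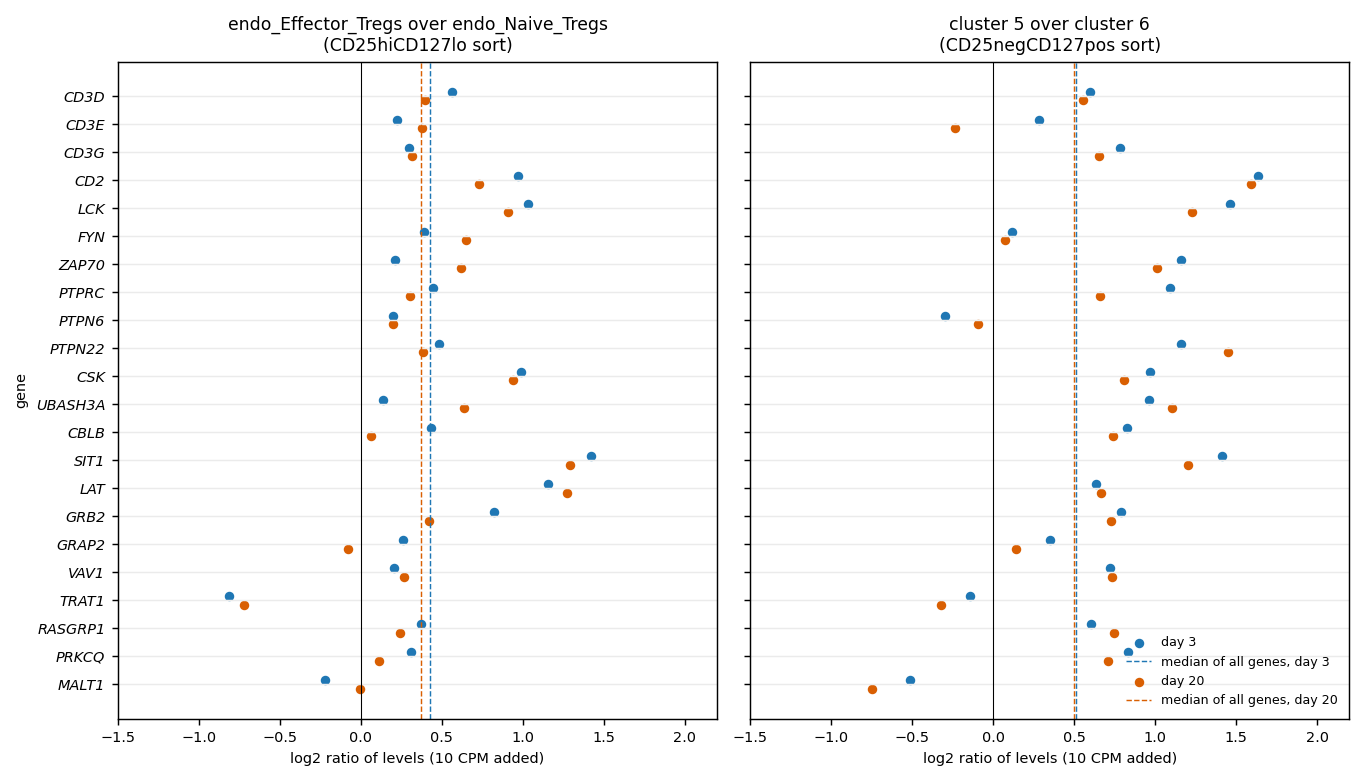
Log2 ratios of levels (10 CPM added) of the 22 genes on day 3 (blue) and day 20 (orange) between endo_Effector_Tregs and endo_Naive_Tregs (left) and between clusters 5 and 6 (right); dashed lines mark the median of all genes on each day. LCK and SIT1 lie right of the dashed lines in both panels, LAT lies past 1 in the left panel only, and TRAT1 lies left of 0 in both.

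A wider list of pathway genes, which also includes other kinases, GTPases, calcium channels, calcineurin, MAP kinases and NF-kappa B components, had 66 of 74 symbols in the table. Between CFSE+ and CD25hiCD127lo cells 0 of its 36 measured genes were called in either direction (all genes 0.506% higher and 1.09% lower). Against CD25negCD127pos cells 1 of 37 was called higher, DOK2, an adaptor that restrains RAS after receptor engagement, and 0 lower. Of all genes 1.59% were called higher and 1.20% lower there, so nothing is read from that count. DOK2 was at 175, 57.0, 36 and 31.7 CPM on day 3 and 85.2, 60.6, 47.8 and 35.4 CPM on day 20, with the order of the sorts the same on both days. Its fold over CD25negCD127pos cells was 5.53 (4.84 to 6.35) on day 3 and 2.41 (2.03 to 2.86) on day 20. At 1.5-fold FYB1, an adaptor of adhesion signalling, was lower in CFSE+ than in CD25negCD127pos cells, at 212 against 334 CPM and 201 against 361 CPM. It was 1 of 37, beside 2.32% of all genes. NFKBIA, the inhibitor of NF-kappa B, was lower than in CD25hiCD127lo cells, at 97.9 against 157 CPM and 122 against 189.7 CPM. It was 1 of 36, beside 2.40% of all genes. DOK2 was also past 1.5-fold between CD25hiCD127lo and CD25negCD127pos cells, 1 of 37 beside 1.71% of all genes. Between the 2 CD127pos sorts 0 of the wider list were called (all genes 0.0579% higher and 0.492% lower).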

How the data were processed

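Libraries were made with 10x 3′ v2 chemistry, per the labels' protocols. The submitters' processing notes list Cell Ranger 2.1.1, and which genome build and gene annotation it used is not given in the sources used here. Values deposited by the authors are whole UMI counts for each gene in each cell (16429 genes, 25397 cells), with no scaling that the files record, and other columns with each cell's library, day, class, cluster and finer name. Counts were summed per library (2992787 to 12149559 UMIs) or per named group of at least 50 cells on each day and divided by the total. Log2 ratios use 10 CPM added to each level, which understates differences of low genes. Level intervals are exact Poisson, and fold intervals exact conditional (Clopper-Pearson), without added CPM. No doublet caller was run, and 1062 cells with over 2 times the library median of UMIs or with 3 or more UMIs of markers of B cells, red cells, platelets or monocytes were left out in an alternative.

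The members and lists were chosen with earlier results of these data known. Values in all libraries are given by rule for the CD3 chains, CD4, LCK, ZAP70, LAT, called members and members at least 1.5-fold apart the same way on both days in a sort comparison. Alternatives were TMM (edgeR 4.0.16) and median-of-ratios (DESeq2 1.42.0) factors, pseudocounts of 1 and 30 CPM, no filter or 50 CPM, a 1.5-fold threshold, the mean of per-cell CPM, no doublet-like cells and the authors' matching classes. Scaling without ribosomal protein genes, and all contrasts of finer names and clusters, were added after seeing the data. Scripts (Python 3.11.15) were tested on simulated data.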

Additional observations from a re-analysis of the deposited data

Results flagged for a closer look

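A search was made for genes at least 1.25-fold apart in opposite directions on day 3 and day 20 after 10 CPM was added, with counting intervals on opposite sides of equality. It found none of the 36, and 3 genes of the wider pathway list in 4 comparisons. The same held for 0.852% of all genes measured between CFSE+ and CD25hiCD127lo cells, 2.61% between CFSE+ and CD25negCD127pos cells and 5.52% between CD25hiCD127lo and CD25negCD127pos cells. LAT came under that line only through the added CPM, with 31.7 against 53.6 CPM and 51.8 against 39.6 CPM between CFSE+ and CD25negCD127pos cells. The difference between the days was not tested in any of them. MAP2K2, a kinase of the MAP kinase pathway, had a log2 ratio of 1.07 between CFSE+ and CD25hiCD127lo cells on day 3, and of -0.58 on day 20. Against CD25negCD127pos cells, which share the CFSE+ libraries, its ratios were 1.10 and -0.48. Its levels were 182, 81.2, 82.6 and 79.7 CPM on day 3 and 86.5, 134, 128 and 124 CPM on day 20, so that the CFSE+ library was highest on day 3 and lowest on day 20. SH2D2A, a T cell adaptor that binds LCK, had log2 ratios of 0.33 and -0.43 between CFSE+ and CD25negCD127pos cells, from 54.6 against 41.4 CPM on the earlier day and 36.1 against 52.0 CPM on the later. PPP3CC, a catalytic subunit of calcineurin, had log2 ratios of -0.36 and 0.68 between CD25hiCD127lo and CD25negCD127pos cells, from 23.0 against 32.5 CPM on the earlier day and 44.2 against 23.8 CPM on the later.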

How the results depend on the processing

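Sorts were compared within each day, and no fit with a replicate block was made because the labels carry no replicate numbers. Of the counts of genes, 278 of 308 alternative values stayed within 1.5 times the main value. Most main counts were 0, and a 0 that stayed 0 is included in the 278. A 1.5-fold threshold in place of 2-fold turned 0 into 3 genes higher and 1 lower in CFSE+ against CD25negCD127pos cells, and 0 into 3 changed between days in CFSE+ cells. In place of the 3 genes past 1.5-fold between days, TMM, median-of-ratios factors and scaling without ribosomal protein genes each gave 1. That gene was LAT, higher on day 20, and none of the 3 stayed past the line. A pseudocount of 1 CPM gave 6. Of the 3 higher than in CD25negCD127pos cells at 1.5-fold, TMM, median-of-ratios factors and a pseudocount of 30 CPM each left 1 (SIT1), and the 1 lower gene (MALT1) fell to 0 with a pseudocount of 30 CPM or a filter of 50 CPM. Against CD25hiCD127lo cells the 0 higher genes at 1.5-fold became 2 with a pseudocount of 1 CPM (GRAP2 and PRKCQ), 1 with the mean of per-cell CPM or without doublet-like cells (LCK) and 1 in matching classes (GRAP2), where 1 was lower (LAT). In matching classes 2 genes (CD2 and SIT1) were higher at 1.5-fold in CD25hiCD127lo than in CD25negCD127pos cells. Between endogenous effector and naive groups the 2 genes higher at 2-fold became 1 with a pseudocount of 30 CPM or without ribosomal protein genes, 1 was lower at 2-fold with a pseudocount of 1 CPM, and the 1 lower at 1.5-fold became 0 with a pseudocount of 30 CPM or a filter of 50 CPM. Between clusters 5 and 6 the 5 higher at 2-fold became 2 with a pseudocount of 30 CPM and 1 without ribosomal protein genes, where the 15 at 1.5-fold became 6. There the 0 lower at 1.5-fold became 1 (MALT1) with a pseudocount of 1 CPM, the mean of per-cell CPM, no doublet-like cells or no ribosomal protein genes. Filters and thresholds leave a gene's ratio as it is by construction. Of 528 alternative log2 ratios of 14 named genes, 512 kept their sign. Those with a pseudocount of 1 or 30 CPM could not change sign by construction, so the share that kept it overstates stability. The 14 named genes also include CD4 and CD247, whose ratios are not read. The cause of these moves was not tested.

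With 1 library per sort and day, differences between sorts cannot be told apart from differences between libraries or animals. Ratios of the 14 genes under 20 CPM are not read, and the 2992787 UMIs of the CFSE+ library of day 20 give it the widest intervals.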
